A study of Mus musculus with 2 samples.

Results

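The 6 guanylate-binding protein genes Gbp2, Gbp3, Gbp4, Gbp5, Gbp6 and Gbp7 were followed in tumor mononuclear phagocytes (TMPs) of 2 mouse genotypes. They were taken by symbol from the 27998 genes of the deposited count matrices. All 6 had unique molecular identifiers (UMIs, each marking 1 captured transcript) in the cells kept. The symbol Gbp6 stood on 2 gene identifiers, so that 7 matrix rows carried a member symbol. Another 4 Gbp symbols were in the table (Gbp2b, Gbp8, Gbp9 and Gbp10) and serve as the rest of the family. The question was how the level of these genes differed between TMPs with and without Fcmr, and between the states of these cells.

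Guanylate-binding proteins are large GTPases of the cytosol, and interferon-gamma is their best known inducer. They bind one another, coat vacuoles and bacteria, help to break open pathogen compartments and feed into inflammasome activation. In macrophages, their transcription is driven by interferon regulatory factors such as IRF1, among others, and is widely read as a trace of interferon exposure. Type I interferons also raise several of them.

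TMPs were sorted by FACS as MerTk+ CD64+ cells from B16 melanomas, a transplanted tumor line, grown in C57Bl/6 mice. One library came from Fcmr+/+ mice and the other from Fcmr-/- mice, which lack the IgM Fc receptor Fcmr. The groups were littermates matched for sex, age and cage, the genotype was that of the whole mouse and so of every host cell in the tumor, and neither the age nor the number of mice per library is given in the sources used here. With a single library on each side, differences between the genotypes could be described but not tested. All intervals below are exact 95% intervals that cover counting error only, not the spread between mice. Those of levels and ratios also leave out the spread between cells, since they count each UMI as independent. The 5% of Fcmr+/+ cells with the most Gbp2 held 69.6% of its UMIs there, and those of the Fcmr-/- library 45.9%.

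After filtering, 6352 Fcmr+/+ cells with 128408544 UMIs and 7999 Fcmr-/- cells with 124630621 UMIs were kept. The median depth was 17973.5 UMIs per Fcmr+/+ cell and 12911 per Fcmr-/- cell. Both libraries carried the gate: Fcgr1, which encodes CD64, stood at 250.4 and 394 UMIs per 1000000 (CPM) in Fcmr+/+ and Fcmr-/- cells, and Mertk at 62.8 and 48.7 CPM. Fcmr itself had 7 UMIs in the Fcmr+/+ library and 6 in the Fcmr-/- library, too few to check the labels, and which part of the gene is deleted is not given in the sources used here. The libraries shared 73 cell barcodes. Cells with a UMI of a T or NK cell marker numbered 15 in the Fcmr+/+ and 106 in the Fcmr-/- library. All 7 markers of that list had more UMIs in Fcmr-/- cells, at a summed 0.872 against 14.8 CPM, and 1 of them (Ncr1) was at 0 in Fcmr+/+ cells. Removing those cells left the log2 ratio of the summed members at 2.06, unchanged from 2.06 with them.

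The genes lie in 2 clusters of the genome (GRCm38, GENCODE M21 annotation). Gbp5 (chr3:142493978-142522344), Gbp7 (chr3:142530342-142550149), Gbp3 (chr3:142560026-142573209), Gbp2b (chr3:142594847-142619179) and Gbp2 (chr3:142620602-142638008) follow each other on the plus strand within 144.0 kb. Gbp4 (chr5:105115767-105139586) and Gbp6 (chr5:105270702-105293698) lie on the minus strand of chromosome 5 within 279.5 kb that also hold Gbp8, Gbp9 and Gbp10. All are protein coding. The promoters below are shown because the members varied together over cells and states. Each runs from 250 bases before to 50 bases after a transcription start in RefSeq (GRCm38.p6), 5′ to 3′ along the gene. Capitals mark letters of 2 interferon-response motifs: the interferon-stimulated response element core GAAANNGAAA, and the gamma-activated sequence TTCNNNGAA, which is its own reverse complement. Both strands were searched.
Gbp2, chr3:142620413-142620712, plus strand: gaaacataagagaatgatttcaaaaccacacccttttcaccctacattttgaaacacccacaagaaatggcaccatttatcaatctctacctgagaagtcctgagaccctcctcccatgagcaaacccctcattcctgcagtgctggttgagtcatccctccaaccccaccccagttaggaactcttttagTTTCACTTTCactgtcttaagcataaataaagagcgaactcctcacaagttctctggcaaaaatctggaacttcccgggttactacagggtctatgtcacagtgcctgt
Gbp3, chr3:142559794-142560093, plus strand: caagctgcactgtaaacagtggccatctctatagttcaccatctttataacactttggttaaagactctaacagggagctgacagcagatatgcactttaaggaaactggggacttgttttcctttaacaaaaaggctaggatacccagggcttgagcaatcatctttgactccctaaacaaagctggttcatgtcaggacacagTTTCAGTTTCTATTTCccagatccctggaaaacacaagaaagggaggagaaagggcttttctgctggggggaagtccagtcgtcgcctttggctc
Gbp5, chr3:142496684-142496983, plus strand: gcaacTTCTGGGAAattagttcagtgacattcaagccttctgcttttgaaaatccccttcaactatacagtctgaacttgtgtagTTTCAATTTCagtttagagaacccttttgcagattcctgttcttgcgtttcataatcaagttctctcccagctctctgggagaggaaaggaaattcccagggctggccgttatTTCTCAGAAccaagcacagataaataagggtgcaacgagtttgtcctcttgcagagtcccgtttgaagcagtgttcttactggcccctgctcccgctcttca
Gbp7, chr3:142530086-142530385, plus strand: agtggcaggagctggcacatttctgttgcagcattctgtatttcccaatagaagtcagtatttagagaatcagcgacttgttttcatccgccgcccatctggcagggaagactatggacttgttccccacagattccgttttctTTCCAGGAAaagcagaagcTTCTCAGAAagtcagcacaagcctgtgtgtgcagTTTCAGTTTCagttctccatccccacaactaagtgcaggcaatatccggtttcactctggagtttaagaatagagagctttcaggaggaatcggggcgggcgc

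A promoter was in the table for 4 of the 6 members, and Gbp4 and Gbp6 had none. The GAAANNGAAA core was found in 4 of these 4, always on the strand opposite to the gene, and in 3.44% of all 32851 promoters of this length. In Gbp2 it lay 59 to 50 bases before the start. In Gbp3, 2 matches overlapped, from 45 to 36 and from 39 to 30 bases before the start. The match lay 165 to 156 bases before the start in Gbp5 and 53 to 44 bases before it in Gbp7. A second start of Gbp3 (chr3:142560106-142560405) held neither motif. TTCNNNGAA was found in 8.30% of all promoters. Gbp5 held it at 245 to 237 and at 52 to 44 bases before the start, and Gbp7 at 106 to 98 and at 87 to 79. The matches are letters in a window and say nothing of binding.

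Every member was higher in Fcmr-/- than in Fcmr+/+ TMPs. Counts came from transcript 3′ ends, 1 UMI per captured end, so levels were not divided by gene length. Gbp2, a member that coats pathogen vacuoles, stood at 21.4 CPM in Fcmr+/+ and 139 CPM in Fcmr-/- cells, a 6.48-fold ratio (interval 6.22 to 6.75). Gbp7, which helps deliver oxidative enzymes to phagosomes, stood at 32.9 and 87.9 CPM, a 2.67-fold ratio (2.58 to 2.77). Gbp3 stood at 10.8 and 33.8 CPM, a 3.12-fold ratio (2.94 to 3.32). The order of the 3 most abundant members changed between libraries: Gbp7 led Gbp2 by 1.54-fold in Fcmr+/+ cells, and Gbp2 led Gbp7 by 1.58-fold in Fcmr-/- cells.

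The less abundant members had a wider range of ratios. Gbp4 had the largest ratio of the 6, from 2.24 CPM in Fcmr+/+ to 29.5 CPM in Fcmr-/- cells, 13.2-fold (11.7 to 14.9). Gbp5, which promotes inflammasome assembly, had the smallest, from 3.995 to 10.1 CPM, 2.53-fold (2.28 to 2.81). Gbp6 was scarce in both libraries, at 0.475 CPM (61 UMIs) and 3.31 CPM (412 UMIs), 6.96-fold (5.31 to 9.26). It stayed below the minimum of 5 CPM in either library that was set for counting genes. In each library the interval of the ratio between neighbours in the order of the 6 levels did not hold 1, down to the 1.15-fold (1.096 to 1.198) of Gbp3 over Gbp4 in Fcmr-/- cells.

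**Figure D1:**
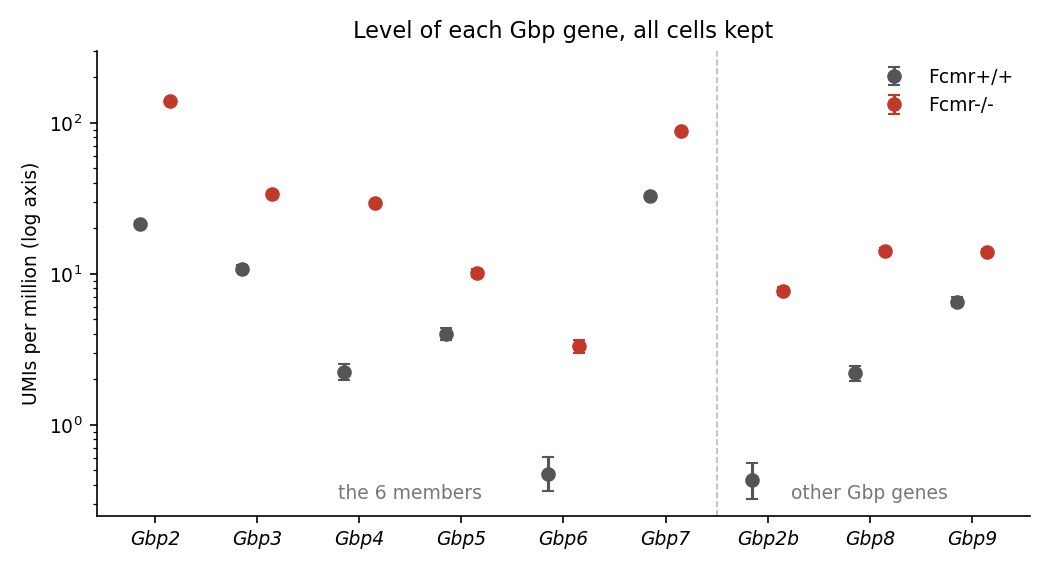
Level of the 6 members and of 3 other Gbp genes in Fcmr+/+ (grey) and Fcmr-/- (red) cells, in UMIs per 1000000 on a log axis; bars are exact 95% counting intervals, often smaller than the point. All 9 genes lay higher in Fcmr-/- cells, from 2.14-fold for Gbp9 to 18.0-fold for Gbp2b.

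Summed over the 6 members, the level was 71.9 CPM in Fcmr+/+ and 304 CPM in Fcmr-/- cells, 4.22-fold (4.13 to 4.32), or 2.06 on the log2(CPM + 1) scale. Of the 5 members with at least 5 CPM in either library, 5 were at least 2-fold higher in Fcmr-/- cells. Among all 8701 genes that passed the same minimum, 86 did so (0.988%), and the median log2 ratio over those genes was 0.0023. In the order of log2 ratios over these genes, Gbp4 was 6th, Gbp2 7th, Gbp3 31st, Gbp7 39th and Gbp5 52nd. Gbp4 and Gbp5 reached 5 CPM in the Fcmr-/- library alone, so they entered the count only through the library where they were high.

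The other family members followed the same direction. Gbp2b was counted 55 times over 21 cells of the Fcmr+/+ library and 959 times over 362 cells of the Fcmr-/- library, an 18.0-fold ratio (13.7 to 24.0). Gbp8 was 6.44-fold higher (5.67 to 7.33) and Gbp9 2.14-fold higher (1.97 to 2.33). Gbp10 had 7 UMIs, all in Fcmr-/- cells, and the second Gbp6 identifier had none in either.

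Sequence shared between copies limits 2 of these values. Of the 451 windows of 50 bases in the last 500 bases of the longest Gbp6 transcript, 351 (77.8%) also occur in Gbp10 and in the second Gbp6 identifier, which GENCODE names Gm43302 and which overlaps both genes. Of the same windows, 34 (7.54%) occur in Gbp9. Reads from such stretches cannot be given to 1 gene, so the levels of Gbp6 and Gbp10 are uncertain. For Gbp4, 29 of 451 windows (6.43%) also occur in Gbp6. The last 500 bases of Gbp2, Gbp3, Gbp5 and Gbp7 shared no such window with another Gbp gene.

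More cells carried the transcripts in the Fcmr-/- library. To compare libraries of unequal depth, each cell was thinned at random to 6643 UMIs, which left out 151 Fcmr+/+ and 800 Fcmr-/- cells. Of 6201 thinned Fcmr+/+ cells, 1738 then held a UMI of any member (28.0%, 26.9 to 29.2). Of 7199 thinned Fcmr-/- cells, 3836 did (53.3%, 52.1 to 54.4). Without thinning the shares were 50.8% and 64.3%. No cell type known to lack these transcripts was in the sort, so the share that free RNA adds could not be measured.

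Gbp2 was found in 8.56% of thinned Fcmr+/+ and 32.4% of thinned Fcmr-/- cells (17.4% and 42.6% before thinning). For Gbp7 these shares were 17.4% and 32.1% (36.6% and 46.4% before thinning). Gbp3 was found in 6.48% and 16.0%, Gbp4 in 1.53% and 11.7%, Gbp5 in 2.11% and 5.43%, and Gbp6 in 0.452% and 1.88%. Cells with 3 or more Gbp2 UMIs after thinning made up 1.32% of Fcmr+/+ and 10.1% of Fcmr-/- cells. For Gbp7 these shares were 0.710% and 5.38%, while for Gbp5 they lay close together, at 0.210% and 0.222%. The highest single cell carried 36 Gbp2 UMIs after thinning in the Fcmr+/+ and 30 in the Fcmr-/- library, so single Fcmr+/+ cells reached the levels seen in Fcmr-/- cells.

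The more members were asked for at once, the further apart the shares of the libraries lay as a ratio. At least 2 members were found in 6.11% of thinned Fcmr+/+ cells (5.53 to 6.74) and 27.4% of thinned Fcmr-/- cells (26.3 to 28.4). At least 3 were found in 1.79% (1.47 to 2.15) and 12.9% (12.1 to 13.7). At least 4 were found in 0.532% (0.367 to 0.747) and 4.72% (4.24 to 5.24). All 6 were found in 0 of 6201 and 3 of 7199 cells. Each member alone was found in a larger share of Fcmr-/- cells, so such a widening can arise without closer joint detection. Over the 15 pairs of members, cells with both numbered a median 3.17 times the product of the 2 shares in Fcmr+/+ cells. In Fcmr-/- cells this median was 2.10. The ceiling of this quotient falls as the larger share of a pair rises, so the 2 medians do not rank the libraries by joint detection.

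**Figure D2:**
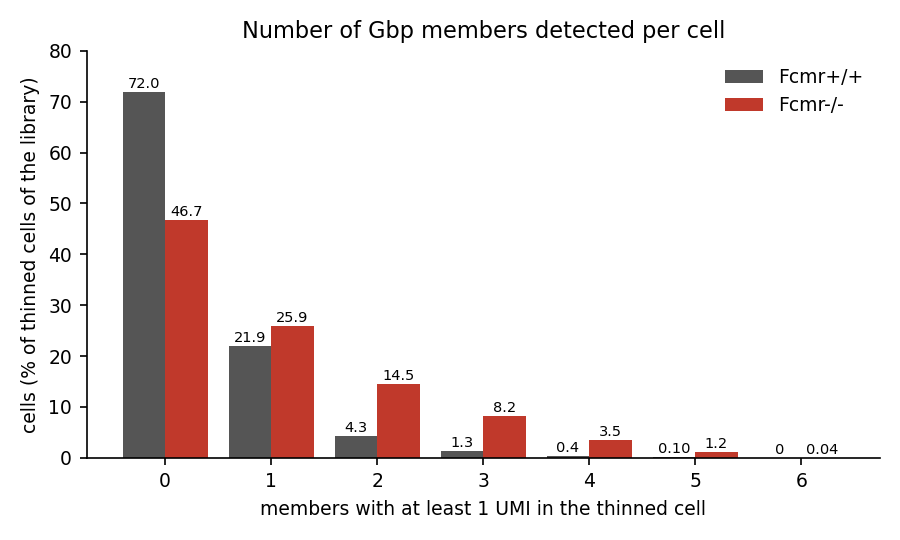
Share of thinned cells (y axis, percent of the thinned cells of each library) by the number of members with at least 1 UMI (x axis), Fcmr+/+ in grey and Fcmr-/- in red. Cells with no member made up 72.0% of Fcmr+/+ and 46.7% of Fcmr-/- cells, and each bar from 1 member upwards is taller for Fcmr-/- cells.

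The makeup of the family also differed. Gbp2 gave 29.8% of the member UMIs in Fcmr+/+ and 45.8% in Fcmr-/- cells, while Gbp7 gave 45.8% and 29.0%. Gbp4 gave 3.12% and 9.72%. Gbp3 gave 15.1% and 11.1%, and Gbp5 gave 5.55% and 3.33%.

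The cells of both libraries were clustered together with all Gbp genes left out of the 1328 variable genes used, so that the members themselves did not shape the states. This gave 11 clusters. Other interferon genes stayed among the variable genes. A high level of the members in clusters led by such genes is therefore not independent of how the clusters were drawn. A name was given only where at least 3 fixed markers were among the 10 leading genes of a cluster. Cluster 8 was type I interferon-high-like with 4 markers (Rsad2, Ifit3, Ifit2, Ifit1). Cluster 9 was type II interferon-high-like with 3 (Iigp1, Serpina3g, Cxcl9), and cluster 5 was G2/M-like with 3 (Cenpf, Ube2c, Top2a). The others are called by number, such as cluster 4, led by Ly6i, Ly6c2 and Ly6a, and cluster 1, led by Ccl17 and Cd209a. Clusters 4 and 9 held 95.2% and 95.5% Fcmr-/- cells, so that there the state and the library cannot be told apart.

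The members were highest in clusters 8, 9, 4 and 5 of Fcmr-/- cells and in clusters 8 and 4 of Fcmr+/+ cells. In Fcmr-/- cells the 6 members summed to 568 CPM in cluster 8 and 566 CPM in cluster 9, with overlapping intervals. Cluster 4 followed at 449, cluster 5 at 334 and cluster 1 at 195 CPM. The other 6 clusters lay between 39.0 CPM (cluster 7, led by Mfge8 and Plpp3) and 83.5 CPM (cluster 6, led by Amica1). In Fcmr+/+ cells cluster 8 stood at 427 and cluster 4 at 276 CPM, and the other 8 clusters with at least 50 cells lay between 29.6 and 92.6 CPM. Cluster 9 held only 44 Fcmr+/+ cells and reached 450.2 CPM in them.

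Gbp2 followed this order closely. In Fcmr-/- cells it stood at 280 CPM in cluster 9, 244 in cluster 8, 214 in cluster 4, 157 in cluster 5 and 68.5 in cluster 1, and no interval in this run overlapped the next. The remaining clusters lay between 12.9 and 31.6 CPM. Gbp7 stood at 153 CPM in cluster 9 and 148 in cluster 8, which overlapped, and its lowest value was 15.5 CPM, in cluster 10 (led by hemoglobin genes). Gbp4 stood at 56.6 CPM in cluster 9, 51.0 in cluster 4 and 50.1 in cluster 8, each overlapping its neighbour, and at 2.03 CPM in cluster 2 (led by Cxcl3 and Csf3). Its lowest Fcmr+/+ value was 0.0965 CPM in cluster 11, which rests on 1 UMI.

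**Figure D3:**
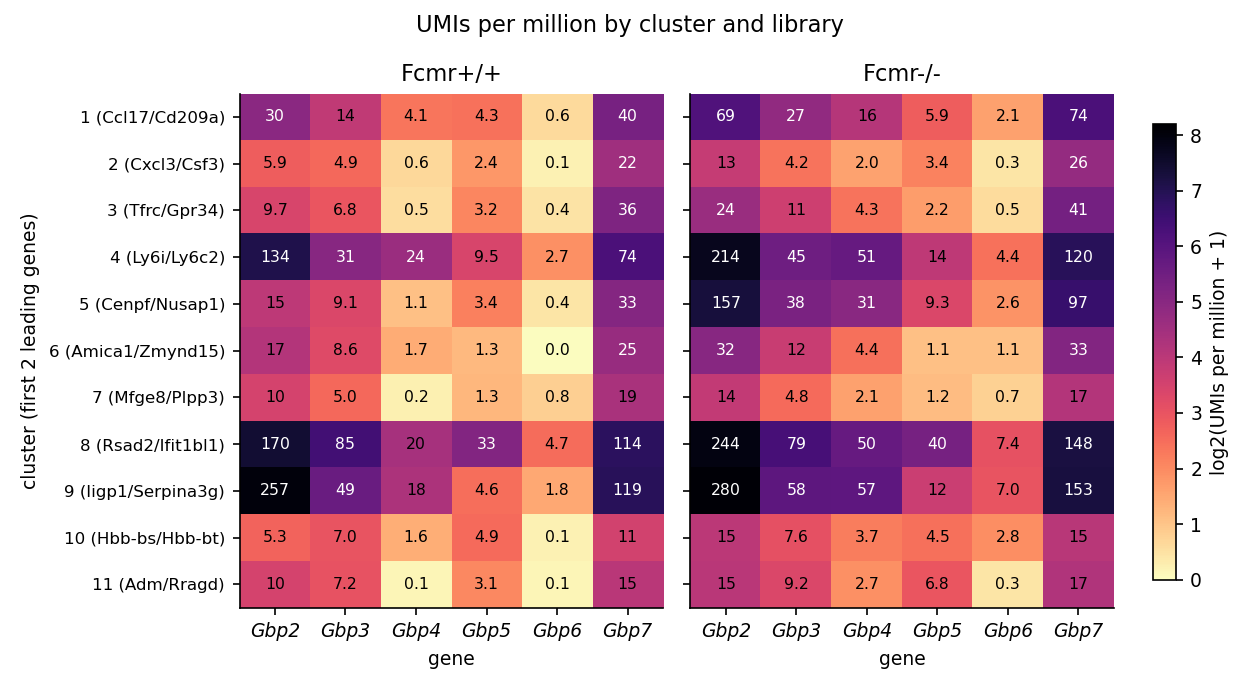
UMIs per 1000000 of each member (columns) in each cluster (rows, with the first 2 leading genes) for Fcmr+/+ cells (left) and Fcmr-/- cells (right); color gives log2(UMIs per 1000000 + 1). Rows 4, 8 and 9 are the darkest in both libraries, and row 5 is dark in Fcmr-/- cells (Gbp2 at 157) but not in Fcmr+/+ cells (Gbp2 at 14.6).

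In Fcmr-/- cells, Gbp5 and Gbp3 were higher in cluster 8 than in cluster 9, while the ratio was below 1 for Gbp2 and Gbp4. Gbp5 stood at 39.8 CPM in cluster 8 and 12.0 CPM in cluster 9 of Fcmr-/- cells, a 3.32-fold ratio (2.80 to 3.94). In Fcmr+/+ cells it stood at 33.4 and 4.59 CPM, the latter from 5 UMIs. Gbp3 was 1.37-fold higher in cluster 8 than in cluster 9 of Fcmr-/- cells (1.24 to 1.52). Gbp2 was lower in cluster 8 than in cluster 9, at 0.871-fold (0.827 to 0.917), and Gbp4 at 0.884-fold (0.787 to 0.992). The interval held 1 for Gbp7 (0.967, 0.904 to 1.03) and for the scarce Gbp6 (1.05, 0.761 to 1.44). Per 100 Gbp2 UMIs, cluster 8 held 16.3 Gbp5 UMIs (14.4 to 18.4) in Fcmr-/- and 19.6 (15.7 to 24.4) in Fcmr+/+ cells. Cluster 9 held 4.29 (3.75 to 4.88) and 1.79 (0.575 to 4.22). Gbp5 content was thus lower in cluster 9 than in cluster 8 in both libraries, on 5 Gbp5 UMIs in Fcmr+/+ cells of cluster 9. Low content was not particular to cluster 9. In Fcmr-/- cells, cluster 4 held 6.61 (5.91 to 7.36), cluster 5 held 5.91 (5.04 to 6.90) and cluster 6 held 3.50 (1.12 to 8.35).

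Set against the rest of the same library, cluster 9 of Fcmr-/- cells had 4 of 6 tested members at least 2-fold higher, where 1.00% of all genes tested were. Cluster 8 had 3 of 6 (4.59% of all genes) and cluster 4 had 1 of 5 (0.243% of all genes). Gbp6, at 3.31 CPM over the library, passed the minimum of 5 CPM in clusters 9 and 8 only because it was high there, and it is 1 of the 4 and 1 of the 3. These are descriptions, since the clusters were drawn from the same cells. Although clusters 4, 8 and 9 held 40.6% of the Fcmr-/- cells, they gave 71.4% of the member UMIs in that library. In Fcmr+/+ cells they held 5.70% of cells and 23.4% of member UMIs.

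The difference between genotypes was present within most clusters. The ratio of the summed members was below the 4.22-fold over all cells in 9 of the 10 clusters with at least 50 cells of each library and above it in cluster 5 (5.43-fold, 5.12 to 5.77). In the 10 clusters with at least 50 cells of each library, 51 of the 60 pairs of a member and a cluster were higher in Fcmr-/- cells (85.0%), beside 54.1% of such pairs over all genes tested. The 54.1% covers only genes with at least 5 CPM in either library. Gbp6 did not reach that minimum, and Gbp4 and Gbp5 reached it in the Fcmr-/- library alone. The interval lay above a ratio of 1 in 35 of the 60 pairs and below it in none of them. Such intervals were not counted over all genes, so this share has no background beside it. They cover counting error only, and Irf1 had them on both sides of 1. Its ratio was 0.565 (0.494 to 0.644) in cluster 3 and 1.64 (1.31 to 2.05) in cluster 10. Gbp2 and Gbp4 were higher in 10 of 10 clusters, Gbp6 and Gbp7 in 9, Gbp3 in 7 and Gbp5 in 6. The median log2 ratio over clusters was 0.93 for Gbp2 and 1.32 for Gbp4, beside 2.64 and 3.23 over all cells. For Gbp5 it was 0.30 and for Gbp7 0.38.

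**Figure D4:**
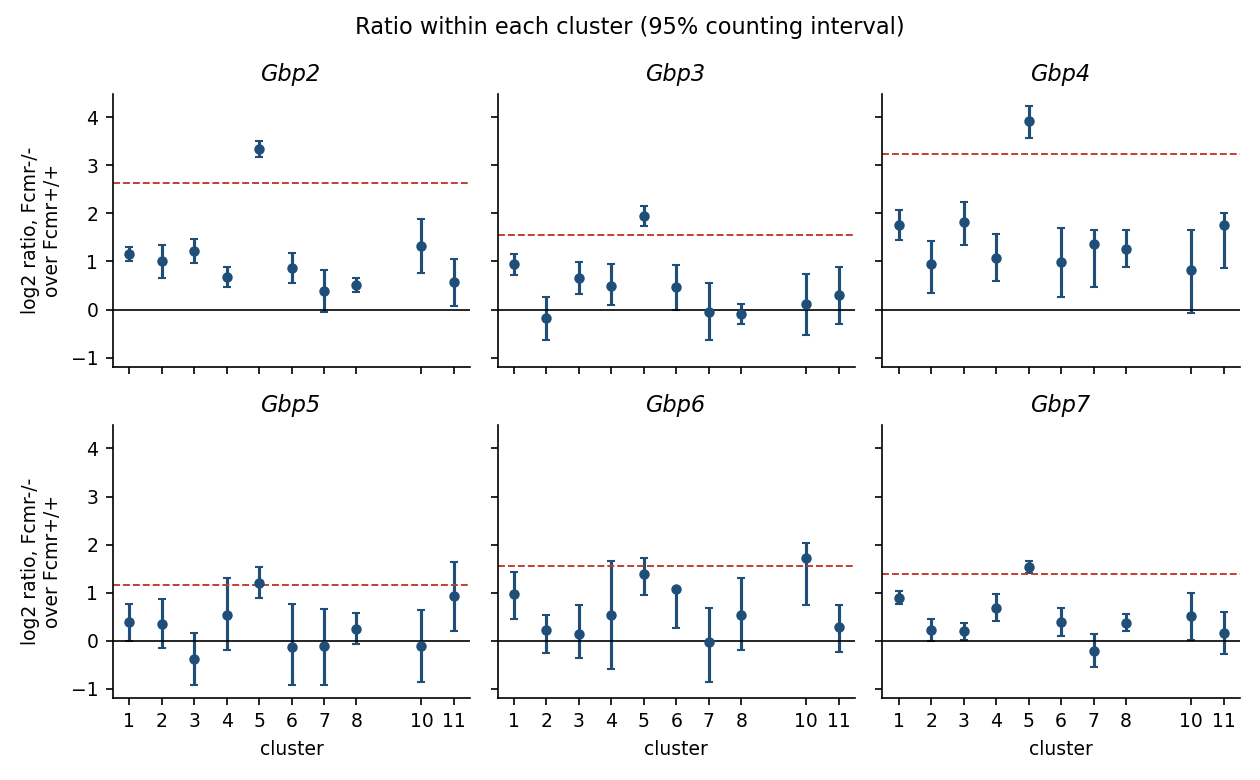
Log2 ratio of (UMIs per 1000000 + 1), Fcmr-/- over Fcmr+/+, of each member (panels) in the 10 clusters with at least 50 cells of each library (x axis); bars are 95% counting intervals, the solid line is no difference and the dashed red line the ratio over all cells. In 5 of the 6 panels the highest point is cluster 5; the Gbp6 value of cluster 6 sets 5 UMIs against 0.

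The G2/M-like cluster 5 showed the widest gap. Within each library its summed level lay near that of the rest. It stood at 334 against 298 CPM in Fcmr-/- cells (1.12-fold) and at 61.4 against 74.1 CPM in Fcmr+/+ cells (0.829-fold). The gap was thus not a high level of cluster 5 within a library. Here Gbp2 stood at 14.6 CPM in 741 Fcmr+/+ cells and 157 CPM in 735 Fcmr-/- cells, 10.8-fold (9.58 to 12.1). Gbp4 stood at 1.09 and 30.6 CPM, 28.2-fold (18.7 to 44.3). Gbp3 was 4.15-fold (3.54 to 4.88), Gbp7 2.95-fold (2.71 to 3.22) and Gbp5 2.69-fold (2.04 to 3.58) higher. Of the 5 members tested in this cluster, 5 were at least 2-fold higher in Fcmr-/- cells, beside 1.39% of all genes tested in it. Gbp4 and Gbp5 passed the minimum of 5 CPM here only through the Fcmr-/- cells, where they were high. All 185 Gbp2b UMIs of cluster 5 were in Fcmr-/- cells.

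Some other interferon-inducible genes differed there too, to unequal degrees. The chemokine gene Cxcl9 stood at 6.38 CPM in Fcmr+/+ and 254 CPM in Fcmr-/- cells of cluster 5. Iigp1, an immunity-related GTPase, stood at 3.75 and 72.2 CPM. The gap was smaller for Isg15, at 63.7 and 155 CPM, and for Ifit3, at 10.7 and 23.7 CPM. Irf1 lay at nearly the same level in both libraries, at 55.2 and 54.9 CPM. Within the Fcmr-/- library, T and NK transcripts were also most abundant in this cluster, at 63.1 CPM summed, beside 0.0452 CPM in its Fcmr+/+ cells, with 17 and 1 cells carrying one. By cells it did not lead: clusters 4, 9 and 1 of that library held 20, 19 and 18 with such a UMI. In the 718 Fcmr-/- cells of cluster 5 without such a UMI, Gbp2 stood at 158 CPM and Gbp4 at 30.5 CPM, so the level was as high without those cells.

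In other clusters the libraries lay closer together. In cluster 8 the summed members stood at 427 CPM in Fcmr+/+ and 568 CPM in Fcmr-/- cells, 1.33-fold (1.25 to 1.42), and in cluster 4 the ratio was 1.63-fold (1.47 to 1.80). Gbp3 did not separate the libraries in cluster 8, at 84.7 and 79.2 CPM (ratio 0.935, 0.807 to 1.09). In cluster 7, the summed members stood at 36.9 and 39.0 CPM, and the interval of the ratio held 1 (0.891 to 1.26). In cluster 1, which held 1231 Fcmr+/+ and 792 Fcmr-/- cells, the ratio was 2.10-fold (1.98 to 2.23), with Gbp2 at 30.2 and 68.5 CPM.

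The cluster makeup and the level within clusters both went with the overall ratio. Without clusters 4, 8 and 9, the summed members stood at 57.6 CPM in 5990 Fcmr+/+ and 151 CPM in 4748 Fcmr-/- cells, 2.62-fold (2.54 to 2.70). When each cluster of the Fcmr-/- library was weighted by its share of Fcmr+/+ UMIs, the ratio was 2.17-fold, beside 4.22-fold with each library as it was. Weighted in this way, Gbp4 was 5.60-fold, Gbp2 2.90-fold, Gbp3 1.83-fold, Gbp7 1.66-fold and Gbp5 1.42-fold higher. Hence 2 of the 5 members tested remained at or above 2-fold, Gbp2 and Gbp4. The share of all genes at or above 2-fold under this weighting was not computed, so this count has no background beside it. Both calculations were chosen after the data were seen. Both kept cluster 5, which held 6204 member UMIs of the Fcmr-/- library and had a 5.43-fold ratio. In the other clusters the summed ratio lay between 1.06-fold (cluster 7) and 2.10-fold (cluster 1). What either calculation gives without cluster 5 was not computed.

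The members were found together in single cells. Of the thinned Fcmr-/- cells with a Gbp2 UMI, 52.1% also had Gbp7, against 22.5% of those without Gbp2. In Fcmr+/+ cells these shares were 35.0% and 15.8%. Gbp4 was found in 25.9% of Fcmr-/- cells with and 4.89% of those without Gbp2, and in 8.66% and 0.864% of Fcmr+/+ cells. Over cells of 1 library, the correlation of log2(1 + thinned UMIs) was above 0 for all 15 pairs of members in both libraries. It ranged from 0.0038 to 0.297 over 6201 Fcmr+/+ cells (median 0.117) and from 0.0539 to 0.398 over 7199 Fcmr-/- cells (median 0.215). Centred within clusters, the medians were 0.0771 and 0.170. These are weak correlations in sparse counts, and the lowest in both libraries was that of Gbp5 and Gbp6.

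The partners differed between members. In Fcmr-/- cells Gbp2 correlated at 0.398 with Cxcl9, 0.378 with Iigp1 and 0.327 with the ubiquitin-like Isg15. Gbp5 correlated highest with Cxcl10, at 0.273 in Fcmr-/- and 0.263 in Fcmr+/+ cells, and lower with Cxcl9, at 0.130 and 0.0259. Gbp3 correlated with Ifit3, an antiviral gene, at 0.267 and 0.257, and Gbp2 did so at 0.213 and 0.262. Arg1 and Mrc1, markers of tissue-repair macrophages, stayed between -0.0900 and 0.0618 with each of the members in both libraries.

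**Figure D5:**
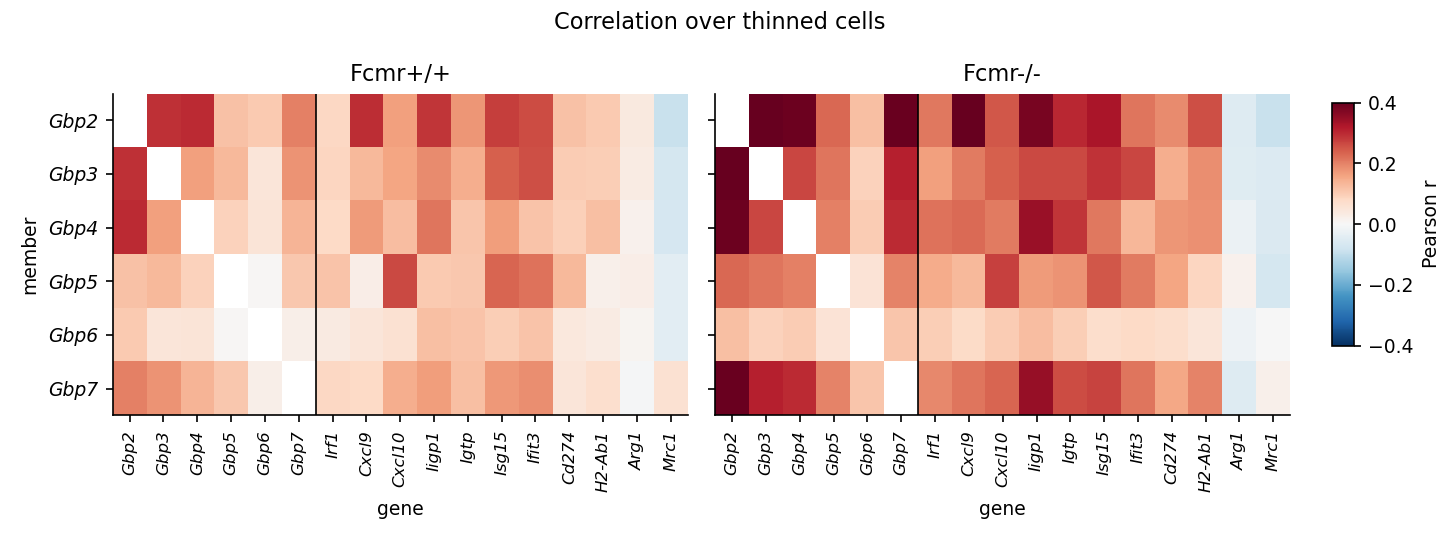
Pearson correlation of log2(1 + thinned UMIs) over cells between each member (rows) and the other members and 11 further genes (columns, to the right of the line), in Fcmr+/+ (left) and Fcmr-/- cells (right). The strongest squares lie in Fcmr-/- cells, up to 0.398, while Arg1 and Mrc1 stay near 0. They include Gbp2 with Gbp3, Gbp4, Gbp7, Cxcl9, Iigp1, Isg15 and Igtp, and Iigp1 with Gbp4 and Gbp7.

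Over the 21 groups of a cluster and a library with at least 50 cells, the log2 levels of Gbp2 and Gbp4 were the most alike pair of members (r = 0.966). The lowest value was that of Gbp5 and Gbp7 (0.748). The groups of 1 library come from the same preparation, though not at equal depth per cell. In Fcmr-/- cells the median ran from 7340 UMIs in cluster 10 to 23811 in cluster 5. Among 5414 other genes with at least 20 CPM in either library, the immunity-related GTPase gene Igtp (r = 0.978) and the peptide transporter gene Tap1 (0.969) were among those that followed the summed members most closely. So were the immunoproteasome gene Psmb9 (0.968), Ifi47 (0.966), Fam26f (0.963), AW112010 (0.963), Irgm1 (0.958), Psmb8 (0.952) and Iigp1 (0.947). Over the 10 Fcmr+/+ groups alone Igtp reached 0.978 and over the 11 Fcmr-/- groups 0.979.

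The immunity-related GTPases, a second interferon-induced GTPase family that acts on the same vacuoles, lay in the same direction as the members. Of the 7 tested, 7 were higher and 6 at least 2-fold higher in Fcmr-/- cells, with a median log2 ratio of 1.43. Iigp1, Irgm2 and Gm4951 of this family reached the minimum of 5 CPM in the Fcmr-/- library alone. Over all 8701 genes tested, 4395 were higher (50.5%) and 86 at least 2-fold higher (0.988%). Iigp1 stood at 3.19 and 72.6 CPM and Irgm1, a member that restrains the others, at 20.1 and 45.4 CPM.

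Genes of the interferon-gamma signaling list differed less. Not all of them lie upstream of the members, Nlrc5 and Ciita for example. Of 14 tested, 12 were higher and 4 at least 2-fold higher, Batf2, Nlrc5 and Ciita among them, with a median log2 ratio of 0.28. Over all genes tested, 50.5% were higher and 0.988% at least 2-fold higher. Batf2 and Ciita reached 5 CPM in the Fcmr-/- library alone. Ciita, the activator of MHC class II genes, stood at 2.35 and 5.35 CPM. The receptor chains stood at 126 and 107 CPM (Ifngr1) and at 102 and 105 CPM (Ifngr2). Irf1, a direct activator of Gbp promoters, stood at 49.1 and 59.3 CPM. The feedback inhibitor gene Socs1 stood at 8.64 and 16.0 CPM. Of 7 type I interferon signaling genes 1, Irf7, was at least 2-fold higher, at 69.7 and 140 CPM, with a median over the list of 0.41.

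Most target genes of both interferons were higher too, beside 50.5% of all genes tested that were higher and 0.988% that were at least 2-fold higher. Of 23 interferon-gamma targets tested, 22 were higher and 6 at least 2-fold higher, with a median log2 ratio of 0.77. Serpina3g, among these 6, stood at 2.77 and 38.4 CPM and so passed the minimum of 5 CPM only through the Fcmr-/- library, where it was high. Of 27 type I interferon targets, 25 were higher and 3 at least 2-fold higher, with a median of 0.54. These counts are over all cells of a library, and levels within clusters could go the other way. Ifit3 stood at 571 CPM in Fcmr+/+ and 367 CPM in Fcmr-/- cells of cluster 8 (ratio 0.642, 0.604 to 0.682). Its ratio was 0.483 in cluster 4. Among clusters with at least 50 cells of each library, Ifit3 was higher in Fcmr-/- cells in cluster 5 alone. Isg15 went both ways, with ratios of 0.904 in cluster 8 and 1.33 in cluster 1.

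Genes whose products act with guanylate-binding proteins lay closer to equal levels. Of 11 inflammasome genes 0 were at least 2-fold higher, and the median log2 ratio was 0.14. Over all genes tested 0.988% were, so a count of 0 in lists this short does not set them apart. Casp1, which encodes the protease of inflammasomes, stood at 43.3 and 69.7 CPM, 1.61-fold (1.56 to 1.67). Casp4, which encodes the mouse caspase-11 that senses lipopolysaccharide, stood at 60.1 and 54.5 CPM, and Aim2, a sensor of cytosolic DNA, at 21.4 and 19.995 CPM. Of 10 genes of ATG8 lipid conjugation, the machinery that guides these GTPases to vacuoles, 0 were at least 2-fold higher (median -0.02). Of 4 tested genes of the prenylation machinery, which attaches lipid anchors to several members, 0 were (median 0.05).

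Transcripts of other cell types were low but did not stand at equal levels in the libraries. Summed over each list, melanoma markers stood at 40.6 CPM in Fcmr+/+ and 64.1 CPM in Fcmr-/- cells, neutrophil markers at 30.8 and 47.4, and dendritic cell markers at 8.82 and 13.9. B cell markers stood at 12.4 and 10.4 CPM, endothelial markers at 6.45 and 11.9, and fibroblast markers at 0.864 and 0.762. Their part in the levels of the members was not tested, and among these lists the T and NK markers alone were used to leave out cells.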

How the data were processed

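The authors sorted MerTk+ CD64+ phagocytes from B16 tumors, made 1 10x 3′ library per genotype and, per the labels, mapped reads to GRCm38 (mm10) and counted UMIs with Cell Ranger. The deposited values are raw UMI counts per gene and cell, not normalized. All matrix columns were used (per-sample columns not used: 0). Cells with 200 to 7000 genes and at most 30% mitochondrial UMIs were kept: 6352 of 6392 Fcmr+/+ and 7999 of 8017 Fcmr-/- cells. No doublet caller was run, and the upper gene limit was the only guard against doublets. Counts were summed over cells of a library and scaled to 1000000 (CPM). Poisson, Clopper-Pearson and exact binomial-split 95% intervals were used. Of these, only the binomial-split interval of a fold was checked on simulated counts, as was the share of cells after thinning. Fold changes are ratios of CPM, and log2 ratios are of CPM + 1. Genes were counted as tested with at least 5 CPM in either library, and called from 2-fold, without p-values. For shares of cells, each cell was thinned to 6643 UMIs, the 10th percentile of Fcmr-/- cells. Clusters were made in Seurat 5.3.0 (R 4.3.3) with 10 principal components and resolution 0.8, after log-normalization to 10000 and without Gbp genes. The authors' own clusters, made with Seurat 2.1.0, were not used here, so that clusters may differ from theirs. Python 3.11.15 with numpy 2.4.6, pandas 2.3.3 and scipy 1.17.1 was used for the rest, and matplotlib 3.10.9 for figures.

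The members and gene lists were chosen with earlier results of these data known, and counts over a list are descriptions. Genes named were the members, other Gbp genes, the 10 genes most alike in pattern over clusters and libraries (at least 20 CPM in either library), genes of the lists, single genes for co-expression, and up to 5 leading genes per cluster. One gene that this rule names is not reported here. The lists covered immunity-related GTPases, interferon-gamma and type I signaling and targets, inflammasome, ATG8 conjugation, prenylation, and cell type markers. Macrophage markers summed to 10589 CPM in Fcmr+/+ and 10086 CPM in Fcmr-/- cells. Alternatives changed the limits on cells, the T and NK cells kept, the scaling, the pseudocount, the filter, the thinning and the clustering.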

Additional observations from a re-analysis of the deposited data

Results flagged for a closer look

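Transcripts of Ifng, the gene of the main inducer of the family, were found outside the members in a sort meant for phagocytes. The Fcmr-/- library held 41 Ifng UMIs (0.329 CPM) in 9 cells, of which 1 cell held 18, and 37 of the UMIs were in 5 cells of cluster 5. The Fcmr+/+ library held 1 Ifng UMI (0.00779 CPM), below the 0.0234 CPM that a count of 0 allows at its depth. The same direction held for Gzmb, a granule protease gene of T and NK cells, counted 10 times over 3 cells of the Fcmr+/+ library and 619 times over 36 cells of the Fcmr-/- library. The relation of these cells to the levels of the members was not tested.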

How the results depend on the processing

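The log2 ratio of the summed members (2.06) was 2.03 with at most 5000 genes per cell, 1.88 as a mean over cells of each cell's CPM, 1.88 in sums of thinned cells and 2.00 with a pseudocount of 5 CPM. It was 1.37 without clusters 4, 8 and 9 and 1.11 at the Fcmr+/+ cluster composition, 2 alternatives chosen after seeing the data. Under these 2, the count of members at least 2-fold higher was 3 and 2 in place of 5, and without the CPM filter it was 6. The share of all genes at least 2-fold higher was not computed under these settings. The share of cells with a member UMI was 50.8% (Fcmr+/+) and 64.3% (Fcmr-/-) with no thinning, and 42.2% and 70.8% when cells were thinned to 12911 UMIs. The Fcmr-/- share was 51.4% with at most 5000 genes and 52.1% without the 5% of cells with the most UMIs. The share of member and cluster pairs higher in Fcmr-/- cells lay between 83.3% and 91.7% over 9 alternatives. No direction was reversed in the alternatives run, and scaling by the median ratio over genes (1.00) left the summed log2 ratio at 2.06. Over 11 alternatives the log2 ratio of Gbp2 lay between 1.49 and 2.69, of Gbp4 between 2.06 and 3.66, of Gbp5 between 0.42 and 1.32, and of Gbp6 between 0.60 and 2.57. No paired analysis was possible because each genotype had 1 library. How far mice of a genotype differ is not known.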
